A study of Gallus gallus with 16 samples.

Results

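Alpha keratins, the genes that build the keratin filaments of epithelial cells, were followed across the epithelium and pulp of growing chicken feathers. The 10 genes chosen by name were KRT5, KRT14, KRT8, KRT9, KRT75, KRT15, KRT17, KRT18, KRT19 and KRT7. Of these, 9 had a column in both expression tables, of 15512 genes in both, and KRT17 matched no column and was not analysed here. A further 6 keratin genes in both tables (KRT12, KRT20, KRT222, KRT6A, KRT78 and KRT80) were read beside them.

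The libraries came from White leghorn chickens and fall into 8 groups: the epithelium and the pulp (the mesenchyme at the centre of a growing feather) of the lateral, narrow-vaned side of primary remiges, of the medial, wide-vaned side of the same remiges, of dorsal plumes and of breast plumes. The labels give every group 2 libraries, from batch I and batch II. A remige library pooled that side of 3 proximal follicles and a plume library pooled 25 proximal follicles. No group carried a transgene or a treatment, and the number of birds behind each pool is not given in the sources used here.

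Keratin filaments are built from pairs of 1 type I and 1 type II chain. In the skin of mammals the type II chain KRT5 and the type I chain KRT14 form the pair of the basal layer, whereas KRT8 and KRT18 form the pair of simple epithelia. KRT75, a type II chain of the mammalian hair follicle, is the gene altered in the chicken frizzle feather, where the rachis (the shaft) is bent. The hard parts of a mature feather consist mostly of beta keratins, an unrelated family that is not counted here.

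Values are given as TPM, the deposited RPKM (reads scaled to gene length and to library size) of a library rescaled to sum to 1000000, so that levels are per length and genes can be compared within a library. Remiges and plumes were deposited as separate tables, and each library was rescaled on its own. Where a library name gives a sequencing lane, it differs between the feather types, so feather type and lane cannot be told apart. Levels of the 2 feather types are set side by side below without a test between them. Differences between groups are differences of mean log2(TPM + 1), tested with limma over every gene of the table that reached a mean of 1 TPM in a group. A gene was called at a Benjamini-Hochberg adjusted p under 0.05. Depth was 23.4 to 45.8 M alignments (M for 1000000), higher in epithelium than in pulp in both tables. The 2 libraries of a group correlated across genes with r of 0.956 to 0.995, and no 2 libraries held the same values. Epithelial and connective tissue markers followed the tissue labels: 23 to 26 of 26 epithelial markers were higher in epithelium in each region, and all 16 fibroblast markers were higher in pulp in each region.

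KRT5 and KRT14 were the most abundant members in all 16 libraries. KRT5 had 2065 and 2065 TPM in lateral remige epithelium (batch I, then batch II, here and below), against 543 and 536 TPM in the pulp of that side. In medial remiges it had 2031 and 1693 TPM in epithelium, against 626 and 581 TPM in pulp. KRT5 in plumes had 2218 and 2120 TPM in dorsal epithelium, against 409 and 512 TPM in dorsal pulp, and 1572 and 1538 TPM in breast epithelium, against 297 and 522 TPM in breast pulp. All epithelium libraries thus lay above all pulp libraries, and both tissues held KRT5 at 297 TPM or more.

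KRT14, the partner of KRT5, was spread less far between the tissues. It had 1549 and 1471 TPM in lateral epithelium, against 818 and 574 TPM in the pulp of that side, and 1284 and 1162 TPM in medial epithelium, against 796 and 586 TPM in medial pulp. In plumes KRT14 had 1643 and 1749 TPM in dorsal epithelium, against 358 and 522 TPM in dorsal pulp, and 1069 and 1124 TPM in breast epithelium, against 369 and 549 TPM in breast pulp. The ratio of KRT5 to KRT14 within a library was 1.21 to 1.58 over the 8 epithelium libraries and 0.664 to 1.14 over the 8 pulp libraries, with no overlap between the tissues.

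KRT9, known in mammals as the type I chain of palm and sole skin, separated the tissues more widely than any other member. It had 273 and 425 TPM in lateral epithelium, against 2.89 and 2.88 TPM in lateral pulp, and 221.2 and 365 TPM in medial epithelium, against 5.29 and 4.63 TPM in medial pulp. KRT9 reached 993 and 1330 TPM in dorsal plume epithelium, against 4.15 and 3.04 TPM in dorsal pulp. In breast plumes it had 794 and 742 TPM in epithelium, against 5.16 and 25.7 TPM in pulp. The batch II breast pulp library was thus far above the other, and it also held the higher sum of 26 epithelial markers other than keratins (1384 TPM, against 760.7 TPM in batch I). The part of that sum in the KRT9 value was not tested.

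The study describes KRT75 as high in the epithelium of the rachis and used its in situ signal to align positions. The levels here are averages over the dissected tissue and do not resolve that region. On this measure KRT75 was a minor keratin in these libraries. It had 54.3 and 20.4 TPM in lateral remige epithelium, against 2.08 and 2.61 TPM in lateral pulp, and 43.4 and 26.1 TPM in medial remige epithelium, against 4.52 and 3.05 TPM in medial pulp. In plumes KRT75 had 5.54 and 2.76 TPM in dorsal epithelium, against 0.69 and 0.697 TPM in dorsal pulp. In breast plumes it had 5.77 and 5.22 TPM in epithelium, against 3.15 and 4.11 TPM in pulp. The breast pulp libraries lay within the range of the remige pulp libraries (2.08 to 4.52 TPM). The 4 remige epithelium libraries (20.4 to 54.3 TPM) did not overlap the 4 plume epithelium libraries (2.76 to 5.77 TPM). Such a gap was not particular to KRT75. KRT18 was also higher in all remige than in all plume epithelium libraries, and KRT8 and KRT9 were lower. KRT5 overlapped between the feather types (1693 to 2065 TPM in remige and 1538 to 2218 TPM in plume epithelium). The feather types were deposited separately, and the share of all genes with such a gap was not computed. In epithelium KRT75 was higher in batch I on both remige sides. Relative to KRT5 of the same library, KRT75 was 0.99 to 2.63% in remige epithelium and 0.13 to 0.367% in plume epithelium. Related KRT75-like genes are annotated in RefSeq, and how reads shared with them were counted is not given in the sources used here, so the KRT75 values are uncertain to that extent.

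**Figure D1:**
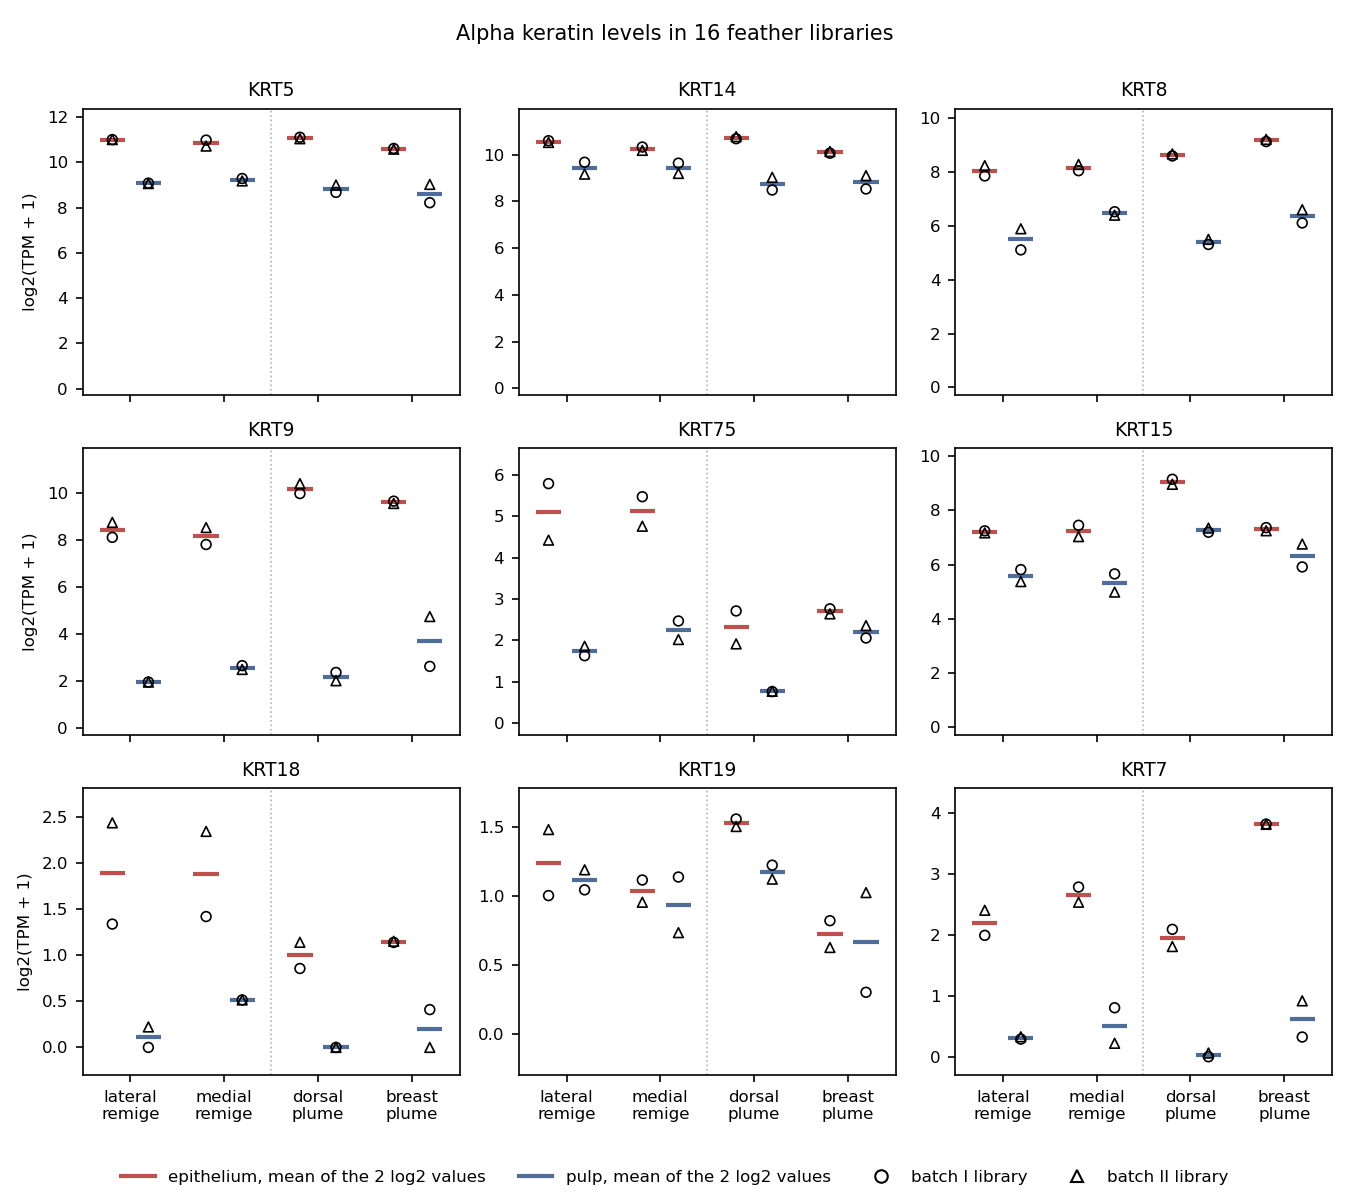
Levels of the 9 alpha keratins in each of the 16 libraries, as log2(TPM + 1), with epithelium (red) left of pulp (blue) in each region. Open circles are batch I and open triangles batch II libraries, bars are the mean of the 2 log2 values, and the dotted line separates the remige and plume tables, which were deposited separately. KRT9 in pulp lies low in its panel (2.88 to 25.7 TPM), KRT5 and KRT14 in pulp stay at 297 TPM or more, and KRT75 in remige epithelium (20.4 to 54.3 TPM) stands above KRT75 in plume epithelium (2.76 to 5.77 TPM).

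KRT8, the type II chain of simple epithelia, was present at middle levels. It had 231 and 301 TPM in lateral epithelium, against 33.5 and 58.5 TPM in lateral pulp, and 264 and 311 TPM in medial epithelium, against 91.2 and 83.3 TPM in medial pulp. In plumes KRT8 had 387 and 407 TPM in dorsal epithelium, against 38.7 and 44.2 TPM in dorsal pulp, and 561 and 593 TPM in breast epithelium, against 68.1 and 96.3 TPM in breast pulp. Its usual partner KRT18 was close to the floor in the same libraries, at 0.812 to 4.43 TPM in epithelium, and was listed at 0 in both dorsal pulp libraries, 1 lateral pulp library and 1 breast pulp library. The other pulp values of KRT18 were 0.167 to 0.43 TPM. In the RefSeq annotation KRT8 and KRT18 are neighbours.

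The column named KRT15, a type I chain that marks basal and bulge cells in mammals, was at 151 and 143 TPM in lateral epithelium, against 55.3 and 40.4 TPM in lateral pulp, and at 174 and 130 TPM in medial epithelium, against 49.4 and 30.7 TPM in medial pulp. In plumes it had 566 and 498 TPM in dorsal epithelium, against 145 and 162 TPM in dorsal pulp, and 164 and 151 TPM in breast epithelium, against 59.2 and 107 TPM in breast pulp. The dorsal epithelium libraries stood apart from the other 6 epithelium libraries, and each dorsal pulp library held about as much KRT15 as a breast epithelium library. RefSeq lists this name as a synonym of KRT13, so the mammalian role may not carry over.

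KRT19 and KRT7 were low. KRT19, a type I chain of simple epithelia and hair follicles in mammals and a synonym of KRT24 in RefSeq, had 0.542 to 1.94 TPM in epithelium and 0.231 to 1.33 TPM in pulp, with the tissues overlapping. KRT7, a type II chain of simple and glandular epithelia in mammals, had 2.99 and 4.31 TPM in lateral epithelium, against 0.223 and 0.256 TPM in lateral pulp, and 5.92 and 4.82 TPM in medial epithelium, against 0.748 and 0.166 TPM in medial pulp. In plumes KRT7 had 3.27 and 2.51 TPM in dorsal epithelium, against 0 and 0.0435 TPM in dorsal pulp, and 13.2 and 13.1 TPM in breast epithelium, against 0.252 and 0.892 TPM in breast pulp. The breast epithelium libraries were the only ones above 10 TPM, and all pulp libraries were below 1 TPM.

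Epithelium was compared with pulp in each region to ask how closely the keratins follow the tissue separation. In remiges 8 of the 9 members were higher in epithelium on the lateral side and 8 of 9 on the medial side. Of all genes tested there, 14.7% were higher in epithelium on the lateral and 13.9% on the medial side. In dorsal plumes 8 of 9 members were higher in epithelium, beside 26.6% of all genes tested, and in breast plumes 7 of 9, beside 26.7%. No member was lower in epithelium in any region, where 37.9, 35.4, 43 and 41.6% of all genes tested were lower in lateral, medial, dorsal and breast feathers, and KRT19 passed the test in none under the scaling used here. The median log2 difference of the 9 members was 1.89, 1.71, 1.92 and 1.28 in lateral, medial, dorsal and breast feathers, beside medians of -0.36, -0.34, -0.19 and -0.16 over all genes tested. These medians over all genes were above 0 after quantile normalization (0.136 to 0.183), and no called member changed direction there. With that scaling 29.3, 29, 40.9 and 42.3% of all genes tested were higher in epithelium in lateral, medial, dorsal and breast feathers and 23, 21.5, 31.8 and 30.4% lower, and 9 of 9 members, KRT19 included, were higher in each region.

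The differences of KRT9, KRT8, KRT5 and KRT14 ran in this order, from large to small, in each region. KRT9 differed by 6.46 ± 0.29 on the log2 scale (SE, limma, adjusted p = 7.79e-06) in lateral remiges, by 5.58 ± 0.29 (adjusted p = 1.44e-05) in medial remiges, by 7.98 ± 0.54 (adjusted p = 1.88e-06) in dorsal plumes and by 5.91 ± 0.54 (adjusted p = 1.40e-05) in breast plumes. KRT8 followed, with 2.55, 1.71, 3.23 and 2.82 in the same regions, and adjusted p of at most 0.00202. KRT5 differed by 1.93, 1.62, 2.24 and 1.98, with adjusted p of at most 5.67e-05. KRT14 differed least, by 1.14, 0.84, 1.97 and 1.28, and its highest adjusted p was 0.0147, in medial remiges, where leaving out the batch I epithelium or the batch II pulp library raised it above 0.05 (highest 0.0829). KRT15 differed by 0.97 to 1.92 and was called in each region. KRT7 differed by 1.89 to 3.20 and was also called in each, although in dorsal plumes 1 of its pulp libraries was listed at 0.

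KRT75 differed by 3.37 ± 0.47 (adjusted p = 0.0011) in lateral and by 2.88 ± 0.47 (adjusted p = 0.00243) in medial remiges. In dorsal plumes the difference was 1.55 ± 0.25 (adjusted p = 0.000533). In breast plumes it was 0.49 ± 0.25, with a 95% interval of -0.08 to 1.07, and did not pass (adjusted p = 0.111), although both epithelium libraries were above both pulp libraries. Under 5 of 17 other settings this breast difference passed. KRT18 passed in the 4 regions by the same test (adjusted p = 0.0131 lateral, 0.0375 medial, 0.00122 dorsal and 0.00182 breast), at levels under 5 TPM, so its fold depends on the pseudocount. In medial remiges the KRT18 call was kept under 10 of 17 other settings and lost with a pseudocount of 5 TPM, with RPKM as deposited, and on leaving out either medial pulp library, either lateral pulp library or the batch II medial epithelium library (highest adjusted p = 0.193). In lateral remiges it was lost without the batch II lateral epithelium or the batch I lateral pulp library (highest 0.0639).

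The level remaining in pulp differed between keratins of the same region. Summed over the 9 members, pulp held 30.5% of the epithelial level in lateral remiges (33.6 and 27.4% by batch), 37.1% in medial remiges (39.1 and 34.9%), 18.5% in dorsal plumes (16.5 and 20.4%) and 25.3% in breast plumes (19.2 and 31.3%). KRT14 in pulp was at 46.1% of its epithelial mean in lateral remiges, 56.5% in medial remiges, 25.96% in dorsal plumes and 41.9% in breast plumes. For KRT5 the shares were 26.1, 32.4, 21.2 and 26.3%, and for KRT9 they were 0.83, 1.69, 0.31 and 2.01%. KRT14 and KRT5 therefore kept a larger share in pulp than KRT9 in every region. In bulk samples, fewer cells of a type and less RNA per cell cannot be told apart.

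A list of 26 epithelial markers other than keratins was read the same way, for those with at least 10 TPM in epithelium. Their median share in pulp was 8.15% in lateral remiges, 13.6% in medial remiges, 8.28% in dorsal plumes and 13.7% in breast plumes. KRT14 lay above 22 of 25 markers in lateral remiges, above 24 of 26 in medial remiges, and above 21 of 26 in dorsal and in breast plumes. By means over both batches KRT9 lay below all markers in lateral remiges, dorsal plumes and breast plumes, and above 1 of 26 in medial remiges. Within single batches 1 marker lay below KRT9 in 6 of 8 cases, the exceptions being batch I in breast and batch II in dorsal plumes. In breast plumes the KRT9 share was 0.65% in batch I and 3.46% in batch II. Of the markers, ITGB4, the hemidesmosomal integrin that anchors basal keratin filaments, kept the highest share in pulp in each region (71.9 to 119%), and the lowest share was that of the claudin CLDN4 in lateral remiges, of the transglutaminase TGM3 in medial remiges and breast plumes, and of RAB25 in dorsal plumes. The part that epithelial cells carried over into pulp play in these shares was not tested.

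The keratin total was a small part of each library. The 15 keratin genes summed to 0.534 to 0.715% of TPM over the 8 epithelium libraries and to 0.109 to 0.199% over the 8 pulp libraries. Within this total KRT5, KRT14 and KRT6A made up 65.3 to 84.2% in epithelium and 75.2 to 93.6% in pulp. Type II chains outweighed type I chains 1.90 to 2.32 times in the 4 remige epithelium libraries and 1.92 to 1.96 times in breast plume epithelium. Dorsal plume epithelium departed from this, with ratios of 1.21 and 0.976. Mean KRT14, KRT9 and KRT15 were higher there than in breast epithelium and mean KRT6A was lower, although KRT14 and KRT9 did not pass in the main test below. Dorsal pulp also had the lower ratios of the plume pulps, 0.872 and 0.808, against 1.60 and 1.55 in breast pulp. These totals, shares and ratios are of the chains present in the tables, and the ratios were not tested. They leave out KRT17 and other keratins with no column of their name, such as KRT3, KRT10 and KRT23. RefSeq lists 21 genes named as keratins (KRT), and 13 of the 15 columns were matched to a RefSeq gene.

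**Figure D2:**
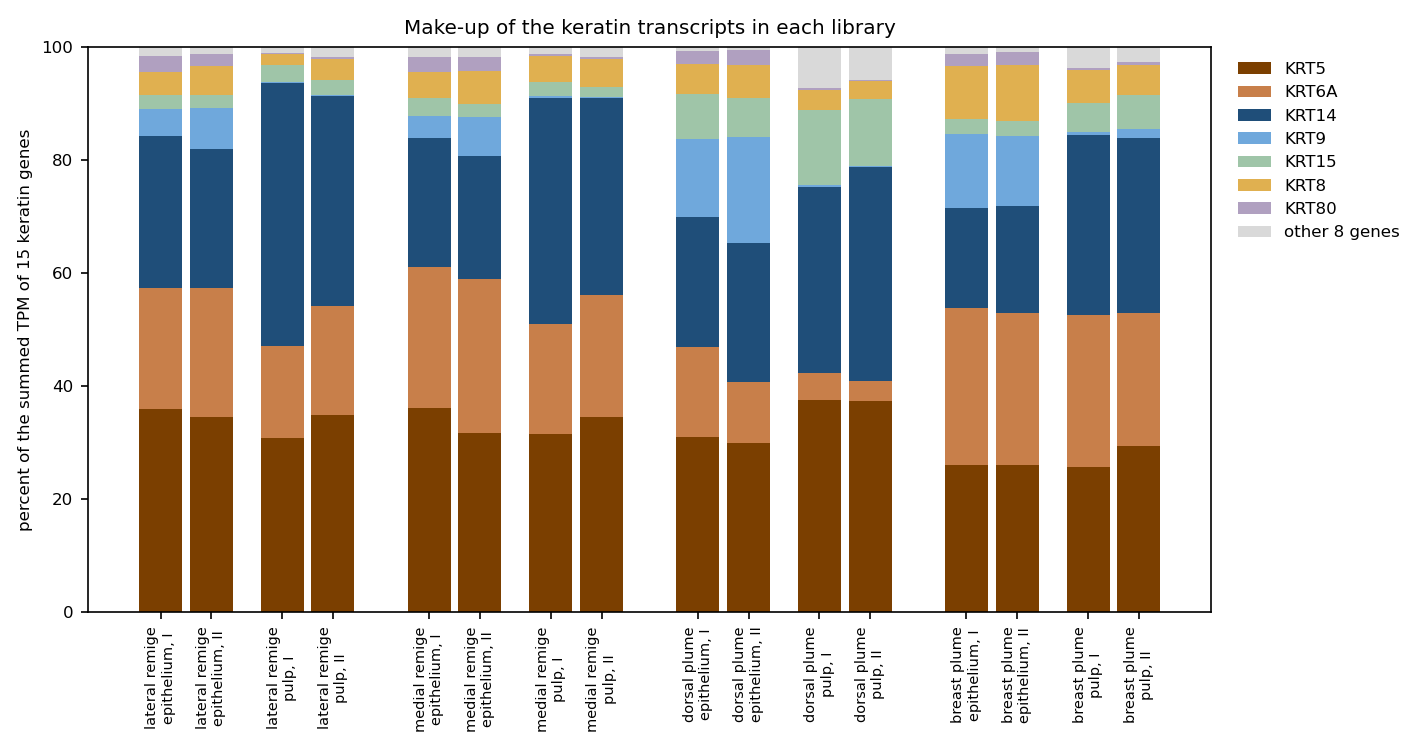
Share of each keratin gene in the summed TPM of the 15 keratin genes, one bar per library (I and II are the batches), with epithelium left of pulp in each region. The KRT9 segment (light blue) is visible in epithelium and almost absent from pulp, and the KRT6A segment (light brown) is smaller in dorsal than in breast plumes. The KRT15 segment (green) is larger in dorsal than in breast plumes in both tissues.

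The lateral and medial sides of remiges were compared to ask whether keratins differ between the narrow and the wide vane. No member was called in epithelium, where 0.00772% of all genes tested were called, and none in pulp, where the share was 0%. At an unadjusted p under 0.05, limma gave 0 of 9 members in epithelium and 1 of 9 in pulp, beside 424 and 468 of 12954 genes. The log2 differences of the members ran from -0.46 to 0.31 in epithelium and from -0.96 to 0.27 in pulp. KRT14 was 0.31 higher in lateral epithelium with a 95% interval of -0.19 to 0.80, and KRT5 0.15 higher with an interval of -0.12 to 0.43. These were the 2 of 9 members whose lateral epithelium libraries both lay above both medial ones, as 11.5% of all genes tested did. KRT7, at the low end of the range (-0.46), lay the other way, at 2.99 and 4.31 TPM in lateral and 5.92 and 4.82 TPM in medial epithelium. The share of all genes lying that way in epithelium was not computed. The intervals are from the fit without a batch term, although both sides came from the same follicles. With the batch as a block KRT14 and KRT5 did not pass either (limma, adjusted p = 0.512 and 0.617). For KRT75 the difference in epithelium was -0.01, with an interval of -1.13 to 1.11, so a difference of 2-fold in either direction lies inside the interval.

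In pulp the member with the smallest p was KRT8, with lateral values of 33.5 and 58.5 TPM, against 91.2 and 83.3 TPM in medial pulp. Its difference was -0.96 ± 0.27, with an interval of -1.60 to -0.32, and it did not pass over all genes (limma, unadjusted p = 0.00965, adjusted p = 0.628, and 0.168 with the batch as a block). KRT9, KRT75, KRT5 and KRT18 were also lower in both lateral pulp libraries than in both medial ones, by differences of -0.62, -0.50, -0.16 and -0.41 that did not pass (adjusted p = 1 each). Such a separation was seen in 5 of the 9 members and in 12.4% of all genes tested. Of the 5, KRT18 was near the floor, at 0 to 0.43 TPM over the 4 remige pulp libraries. Lateral pulp held the lower sum of the 26 epithelial markers, 840.7 and 790.6 TPM, against 1294 and 1097 TPM in medial pulp. The part of that sum in the 5 keratin values was not tested. The difference between the sides was not called different between epithelium and pulp for any member (interaction term, adjusted p = 1 for each) and with 0 of 9 at an unadjusted p under 0.05, beside 0% of all genes called and 451 at an unadjusted p under 0.05.

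Dorsal plumes were compared with breast plumes as the narrow-vaned and wide-vaned body feathers. In epithelium 2 members were higher in dorsal plumes (KRT15 and KRT19) and 2 were lower (KRT7 and KRT8). Of all genes tested, 8.55% were higher and 9.1% lower. KRT15 was 3.38 times as high in dorsal epithelium, 3.46 and 3.30 times within batch I and batch II, a difference of 1.75 ± 0.23 on the log2 scale (limma, adjusted p = 0.0015). KRT7 was lower by 1.87 ± 0.21 (adjusted p = 0.000854), with 3.27 and 2.51 TPM in dorsal and 13.2 and 13.1 TPM in breast epithelium. Both calls were kept under every other setting tried for these genes, with adjusted p of at most 0.0259.

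The other calls in plume epithelium were near the threshold. KRT8 was at 387 and 407 TPM in dorsal and 561 and 593 TPM in breast epithelium, a difference of -0.54 ± 0.15 (adjusted p = 0.0391), and was called under 9 of 18 other settings. It was lost without a filter, with equal upper quartiles, after quantile normalization, and without any 1 of the 4 epithelium libraries or either dorsal pulp library (highest adjusted p = 0.201). KRT19 was at 1.94 and 1.83 TPM in dorsal and 0.765 and 0.542 TPM in breast epithelium, a difference of 0.81 ± 0.23 (adjusted p = 0.0456), and was lost without the same 6 libraries (highest adjusted p = 0.219), with a pseudocount of 0.1 TPM, without a filter and with the batch as a block (0.0558). KRT14 was 1.55 times as high in dorsal epithelium and did not pass (0.63 ± 0.20, adjusted p = 0.0686), but passed with the batch as a block (0.0194) and with only the groups compared. KRT5 was 1.39 times as high and did not pass (0.48 ± 0.22, adjusted p = 0.183), but passed under 3 of 18 other settings. KRT9 was 1.51 times as high (adjusted p = 0.523), and the interval of its log2 difference, -0.65 to 1.81, was the widest of the members.

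KRT75 showed no called difference between the tracts in epithelium (-0.39 ± 0.25, adjusted p = 0.34), its libraries overlapped, and it passed under 1 of 17 other settings, without the batch I dorsal epithelium library. In pulp it was lower in dorsal plumes, at 0.69 and 0.697 TPM, against 3.15 and 4.11 TPM in breast pulp, a difference of -1.44 ± 0.25 (adjusted p = 0.00331). KRT8 was also lower in dorsal pulp, by 0.95 ± 0.15 on the log2 scale (adjusted p = 0.00187), and KRT15 was higher by 0.94 ± 0.23 (adjusted p = 0.0159). These were the 3 members called in pulp, 1 higher and 2 lower, beside 13% and 15.2% of all genes tested. The KRT15 call in pulp was kept under 14 of 18 other settings and lost with robust eBayes, with only the groups compared and without either dorsal pulp library (highest adjusted p = 0.121). KRT9 differed by -1.49 ± 0.54 in pulp and did not pass (adjusted p = 0.0718), with the batch II breast library far above the other 3. Leaving out the batch I breast pulp library left only the high batch II library for breast pulp, and the KRT9 difference was then -2.55. Without the batch II library it was -0.43.

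Epithelial markers other than keratins were read beside these pulp results. Their sum was 609.7 and 719.9 TPM in dorsal pulp, against 760.7 and 1384 TPM in breast pulp. In dorsal pulp 0 of the 26 were higher and 9 lower, beside 13% and 15.2% of all genes tested. Lower genes were not confined to epithelial markers. Of the endothelial markers 8 of 13 were lower, of leukocyte markers 3 of 8 and of smooth muscle markers 2 of 6, with 0 higher in each list. Of 16 fibroblast markers 3 were higher and 1 lower. None of the 26 was listed at 0 in both libraries of any group. Their part in the lower KRT8, KRT75 and KRT9 values was not tested. KRT15 was higher in dorsal pulp, where the marker sum was lower, and was also higher in dorsal epithelium. As a share of its epithelial mean, KRT15 in pulp was lower in dorsal (28.86%) than in breast plumes (52.86%). The median share of the markers was also lower in dorsal plumes (8.28%, against 13.7%). The part of the markers in the KRT15 values was not tested either.

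**Figure D3:**
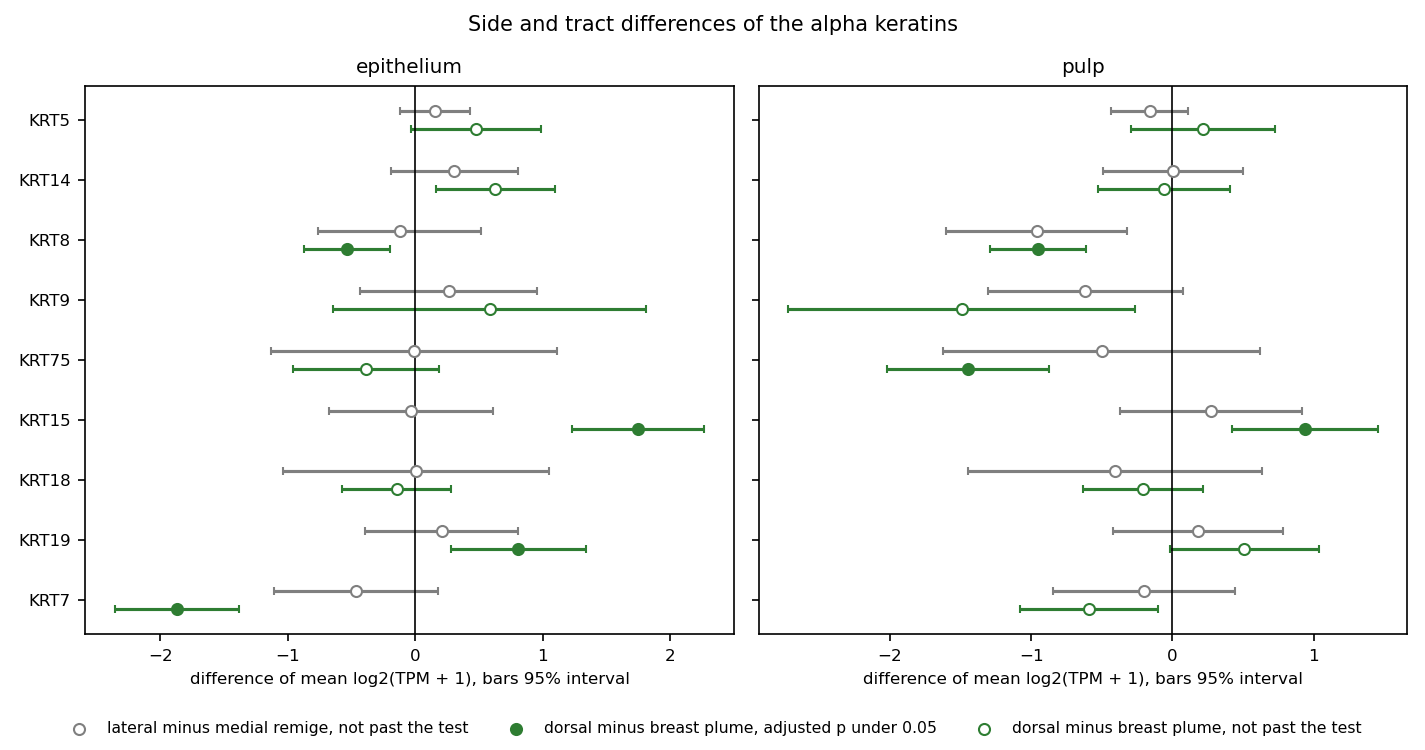
Differences of mean log2(TPM + 1) between lateral and medial remiges (grey) and between dorsal and breast plumes (green) for the 9 alpha keratins, in epithelium and in pulp. Bars are 95% intervals from limma, filled points passed at an adjusted p under 0.05 and open points did not. KRT15 (1.75) and KRT7 (-1.87) lie furthest from 0 in plume epithelium, and none of the grey points is filled.

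Whether the tract difference itself differed between epithelium and pulp was tested with an interaction term. Of the members, 1 was called, KRT7 (-1.28 ± 0.30, adjusted p = 0.0173), beside 22.7% of all genes tested. Its pulp levels were under 1 TPM, and with a pseudocount of 0.1 TPM in place of 1 the value was 0.14, so the call depends on how values near 0 are treated. It was also lost without either breast epithelium library, the batch II dorsal epithelium library or either dorsal pulp library (highest adjusted p over all settings 0.912). KRT75 (1.06 ± 0.35, adjusted p = 0.0659), KRT9 (2.07 ± 0.76, adjusted p = 0.0868) and KRT15 (0.81 ± 0.32, adjusted p = 0.106) did not pass. KRT75 passed under 4 of 16 other settings (lowest adjusted p = 0.0116), namely a pseudocount of 0.1 TPM, equal upper quartiles, robust eBayes and without the batch II dorsal epithelium library. KRT9 passed under 2 of 17, without either breast pulp library, and KRT15 under 1 of 17, without the batch I breast pulp library. KRT14 did not pass either (0.69 ± 0.29, adjusted p = 0.128), but did with the batch as a block (0.0406).

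Of the 6 other keratins, KRT6A was the most abundant in epithelium (777 to 1680 TPM). This type II chain of mammalian hair follicles and wounded skin lies between KRT5 and KRT75 in RefSeq. It had 1129 and 777 TPM in dorsal epithelium and 1680 and 1595 TPM in breast epithelium. In pulp it had 51.9 and 48.8 TPM in dorsal and 310 and 417 TPM in breast plumes. The difference was -0.80 ± 0.18 in epithelium (adjusted p = 0.0179) and -2.81 ± 0.18 in pulp (adjusted p = 1.85e-05), and the interaction was 2.01 ± 0.26 (adjusted p = 0.00112). The epithelial call was lost without a filter, with only the groups compared, and without the batch II dorsal, the batch I breast or the batch II breast epithelium library, or either dorsal pulp library (highest adjusted p = 0.131). KRT5, its neighbour, was 7.87 and 10.5 times KRT6A in dorsal pulp and 0.96 and 1.25 times in breast pulp. In remiges KRT6A was at 1240 and 1366 TPM in lateral and 1411 and 1451 TPM in medial epithelium, with no call.

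KRT12, the type I chain of the mammalian cornea, had a pattern of its own. It had 48.3 and 48.0 TPM in dorsal plume pulp and 0.833 and 1.60 TPM in breast pulp, a difference of 4.49 ± 0.19 (adjusted p = 4.13e-06). In epithelium it was at 1.76 and 1.74 TPM in dorsal and 4.99 and 3.92 TPM in breast plumes, a difference of -0.98 ± 0.19 (adjusted p = 0.0101), lost without the batch I breast or batch II dorsal epithelium library (highest adjusted p = 0.1). The interaction was -5.47 ± 0.27 (adjusted p = 2.50e-05), the 11th smallest p of 13246 genes. In the other 3 regions KRT12 was higher in epithelium than in pulp, and in remige pulp it did not exceed 1.32 TPM. The column was not matched to a RefSeq gene, so which keratin it measures is uncertain.

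KRT222, a keratin-related gene, was at 23.6 and 24.1 TPM in dorsal pulp and 8.08 and 8.82 TPM in breast pulp, a difference of 1.40 ± 0.13 (adjusted p = 0.000141). It was also higher in dorsal epithelium (0.71 ± 0.13, adjusted p = 0.00851), a call lost with only the groups compared and without the batch I breast epithelium library. It was the only other keratin besides KRT12 called lower in epithelium than in pulp in a region, in dorsal plumes (-1.35 ± 0.13, adjusted p = 2.25e-05) and in breast plumes (-0.66 ± 0.13, adjusted p = 0.00208). The breast call was lost after quantile normalization, where the log2 difference was 0.18 (adjusted p = 0.213). Once batch was blocked, KRT222 was also called lower in lateral remige epithelium than in lateral pulp (-0.65, adjusted p = 0.00716, against 0.115 without the block). KRT78 was lower in dorsal plumes in both tissues (-1.86 ± 0.32 in epithelium, adjusted p = 0.00583, and -2.27 ± 0.32 in pulp, adjusted p = 0.00114). Its epithelial call was lost with only the groups compared and without the batch I breast epithelium library. KRT80, a type II chain, was higher in epithelium in each region, at 128 to 198 TPM in epithelium and 2.45 to 8.46 TPM in pulp. KRT20 was at 12.9 and 9.14 TPM in dorsal and 6.20 and 5.38 TPM in breast epithelium (0.81 ± 0.23, adjusted p = 0.0436). This call was kept under 7 of 17 other settings and lost with the batch as a block (0.0533), with a pseudocount of 0.1 TPM, without a filter, with only the groups compared, and without any 1 of the 4 epithelium libraries or either dorsal pulp library (highest adjusted p = 0.216). KRT78 was not matched to a RefSeq gene and RefSeq lists KRT20 as a synonym of KRT40, so which genes these 2 columns measure is uncertain.

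**Figure D4:**
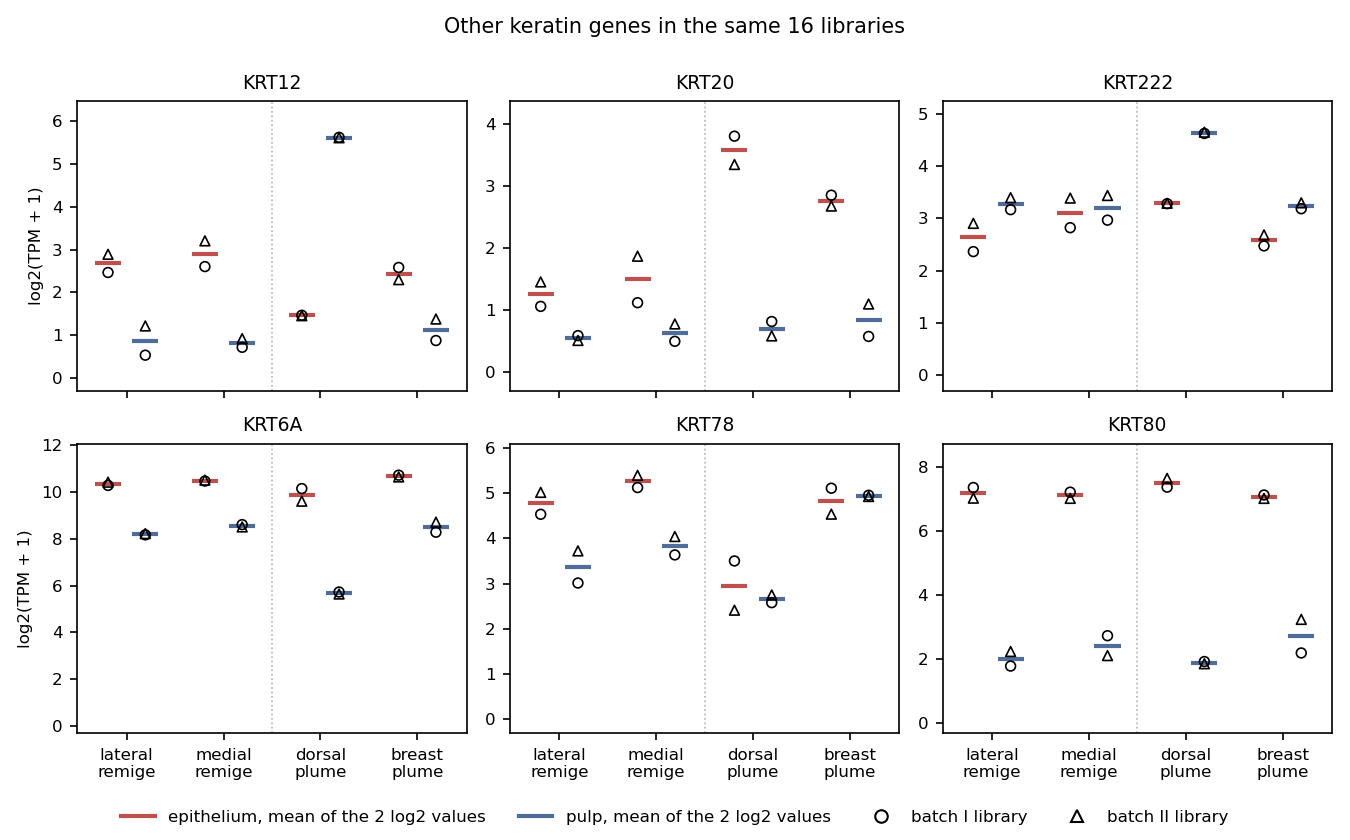
Levels of the 6 other keratin genes in the 16 libraries, as log2(TPM + 1), with epithelium (red) left of pulp (blue), circles for batch I, triangles for batch II and bars for the mean of the 2 log2 values. KRT12 in dorsal plume pulp (48.3 and 48.0 TPM) stands above its other groups, and KRT6A in dorsal plume pulp (51.9 and 48.8 TPM) below its other groups.

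Genes that anchor keratin filaments were read from a list of 23, of which 16 were in both tables. In epithelium against pulp, 9 were higher and 2 lower in lateral remiges, 9 and 2 in medial remiges, 13 and 2 in dorsal plumes and 7 and 2 in breast plumes, where 14.7, 13.9, 26.6 and 26.7% of all genes tested were higher and 37.9, 35.4, 43 and 41.6% lower. Their median log2 differences were 1.23, 0.92, 1.37 and 0.17, each above the median over all genes. Desmoplakin (DSP), which ties keratin filaments to desmosomes, had 1183 and 984.4 TPM in lateral epithelium, against 41.9 and 50.0 TPM in lateral pulp, and 2010 and 1761 TPM in dorsal epithelium, against 42.2 and 45.5 TPM in dorsal pulp. These are the narrow-vaned regions. The study lists DSP as lower in their pulp than in medial remige and breast plume pulp, by fold change, level and direction rather than by a test. The DSP levels of those wide-vaned regions are not given here. In dorsal against breast plumes, 5 of the 16 were higher and 1 lower in epithelium, beside 8.55 and 9.1% of all genes, and 1 higher and 7 lower in pulp, beside 13 and 15.2%. Of 9 other intermediate filament genes tested, 1 or 2 were higher and 4 or 5 lower in epithelium in each region, which for a list of this size is near the shares over all genes. Vimentin, the mesenchymal filament protein, was at 14.4 and 18.6 TPM in lateral epithelium, against 5363 and 5345 TPM in lateral pulp. Of 17 keratinocyte transcription factors in the tables, 11 to 14 were higher in epithelium and 0 to 2 lower in each region, beside at most 26.7% of all genes higher and at least 35.4% lower.

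The genes with the most similar pattern were sought by the lower of 2 Pearson correlations with a member, 1 over the 8 remige and 1 over the 8 plume libraries, among 5866 genes. For KRT75 these were PPFIBP2 (r = 0.971 in remiges and 0.961 in plumes), KRT6A (0.96 and 0.955) and MAGI3 (0.946 and 0.956). For KRT5 they were PCDH10, RALGPS1 and RIPK4, with r of 0.988 to 0.997. For KRT14 they were HSPB8, SNAP47 and VSNL1, with r of 0.967 to 0.978. The libraries share the contrast between epithelium and pulp, so high values describe that contrast and carry no test.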

How the data were processed

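The authors trimmed 50 bp single-end reads from TruSeq libraries of 4 µg RNA, mapped them to galGal4 with TopHat2 and quantified genes in Partek, per the labels and methods (no versions given). They deposited RPKM values and a count of alignments per library, in 1 table for remiges and 1 for plumes. The annotation, strand setting and treatment of multi-mapped reads are not given in the sources used here. Since the values are not counts, the counting error of a gene is unknown and precision rests on 2 libraries per group. Depth was 42.2 to 45.8 M (M for 1000000) alignments in remige epithelium, 29.4 to 37 in remige pulp, 32.6 to 37.7 in plume epithelium and 23.4 to 26.1 in plume pulp.

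RPKM were rescaled to 1000000 per library (TPM) and tested as log2(TPM + 1), which understates the fold of low genes, with limma 3.58.1 in R 4.3.3 (4 group means per table, 4 residual degrees of freedom, eBayes with trend), over genes with a group mean of at least 1 TPM: 12954 in remiges and 13246 in plumes. Benjamini-Hochberg adjustment was over all of them. The fit was tested on simulated data with independent errors and with set differences in genes of higher level only. That check covers neither differences shared within a batch nor genes near the floor. Tables and figures were made with Python 3.11.15 and matplotlib 3.10.9. All 9 members passed the filter in both tables.

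The members, gene lists, comparisons and alternatives were chosen with earlier results of these data known. The text names every member, every other keratin column reaching 1 TPM in a group, up to 4 genes of each list by mean TPM, and the 3 genes most like KRT75, KRT5 and KRT14. ITGB4, CLDN4, TGM3 and RAB25 were named after their values were seen, as the ends of the marker range. RefSeq (GRCg7b) served for names and neighbours only, and matched 13 of the 15 keratin columns, 3 of them under another symbol. Other settings tried were a pseudocount of 0.1 or 5 TPM, dropping the filter, a group mean of 25 TPM, RPKM as deposited, equal upper quartiles, quantile normalization, robust eBayes, only the groups of the comparison, a replicate block (batch as a term), and single libraries left out. The labels name a shared batch, and both remige sides came from the same follicles. Batch deviations of the groups correlated with r of 0.446 to 0.805 in remiges and 0.00429 to 0.117 in plumes. The study calls the batches biological replicates.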

Additional observations from a re-analysis of the deposited data

Results flagged for a closer look

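In plumes it was tested whether the difference between dorsal and breast feathers differed between epithelium and pulp. This passed for 4 of the 15 keratin genes (limma, adjusted p under 0.05), beside 22.7% of all genes tested. The count is near that share. KRT12 had an interaction of -5.47 (adjusted p = 2.50e-05), being higher in dorsal pulp and lower in dorsal epithelium. KRT6A had 2.01 (adjusted p = 0.00112), being lower in dorsal plumes in both tissues and further so in pulp. KRT7 had -1.28 (adjusted p = 0.0173), at pulp levels under 1 TPM. KRT222 had -0.69 (adjusted p = 0.0319), being higher in dorsal plumes in both tissues and further so in pulp, and kept its call under 7 of 16 other settings. With 2 libraries per group, single libraries could not be screened as outliers.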

How the results depend on the processing

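Counts of called members kept within 1.5 times except as follows. With a group mean of at least 25 TPM, the number of members called was 5 for epithelium against pulp in dorsal plumes, 2 for dorsal against breast epithelium and 0 for the plume interaction, where fewer members were tested. Without a filter, 2 were called for dorsal against breast epithelium. For the plume interaction 2 were called with equal upper quartiles, with robust eBayes and with the replicate block. Leaving out 1 library gave 2 to 5 members for dorsal against breast epithelium, 2 to 5 for dorsal against breast pulp and 0 to 5 for the plume interaction. In lateral, medial, dorsal and breast feathers it gave 7 to 8, 6 to 8, 8 to 9 and 7 to 8 members for epithelium against pulp, and 0 for every remige side comparison. The cause was not tested.

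The block for the batch, which pairs groups within a batch, gave 8, 8, 8 and 7 members for epithelium against pulp in the same 4 regions, 0 for the 3 remige side comparisons, 4 for dorsal against breast epithelium and 3 for pulp. It exchanged KRT19 for KRT14 in plume epithelium, added KRT14 to the plume interaction and lost KRT20 in plume epithelium. Among the other keratins it added KRT222 (adjusted p = 0.00716, against 0.115) and KRT20 (0.0363) in lateral and KRT20 (0.0189) in medial remige epithelium against pulp, and KRT80 in dorsal against breast pulp (0.0472) and in the plume interaction (0.0425).

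The summed pulp share was 24.2% in lateral and 30.3% in medial remiges with equal upper quartiles, against 30.5 and 37.1%. Leaving out 1 library gave 27.8 to 33.2%, 33.4 to 40.8%, 16.04 to 20.9% and 19.2 to 31.3% in lateral, medial, dorsal and breast feathers.

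Of 78 gene results, 7 changed sign under some alternative, and 2 of these were called: KRT7 in the plume interaction (0.14 with a pseudocount of 0.1 TPM) and KRT222 in breast plumes (0.18 with quantile normalization). KRT75 in lateral against medial epithelium was 0.0022 with a pseudocount of 5 TPM, 0.033 with equal upper quartiles and 0.022 with quantile normalization. Leaving out 1 library turned the sign of uncalled results only. Its range was -0.69 to 0.67 for KRT75 in lateral against medial epithelium and -0.79 to 0.0098 for KRT75 in dorsal against breast epithelium. For KRT19 in epithelium against pulp it was -0.11 to 0.36 in lateral remiges, -0.10 to 0.30 in medial remiges and -0.30 to 0.42 in breast plumes.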
